A study of Homo sapiens with 6 samples.

Results

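The genes described here are 38 autophagy and mitophagy genes, chosen by name with earlier results of these data known. All 38 were measured among the 19775 genes on the arrays. For each gene, probe sets annotated to it alone were taken, and the one with the highest mean over the 6 arrays gave the gene's value. All samples are MOLM-14, an acute myeloid leukaemia cell line in long use that carries the MLL-AF9 fusion. The 3 CA samples were kept for 24 h in 10 nM cortistatin A (CA), a marine natural product that blocks CDK8 and CDK19, which are Mediator's kinases, and the 3 DMSO samples were kept for 24 h in the vehicle. Wells of a 12-well plate were seeded in triplicate from the 1 line, RNA was taken with either of 2 kits that are not named by sample, and no animal or donor stands behind the replicates. The comparison asks which transcripts differ when these kinases are inhibited.

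Autophagy encloses cytoplasm in a membrane vesicle, the autophagosome, that fuses with lysosomes, and mitophagy is the same process aimed at mitochondria. The ULK kinase complex starts it, a lipid kinase complex around PIK3C3 marks the growing membrane, and lipid carriers and scramblases extend it. A conjugation system then attaches the ubiquitin-like ATG8 proteins to the membrane, and cargo receptors tie ATG8 proteins to ubiquitin-tagged cargo or to mitochondria. In myeloid cells the pathway is known for clearing damaged mitochondria and intracellular microbes.

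Values are log2 intensities that the authors normalized by RMA (robust multi-array average), so that a difference of 1 is a doubling of signal. Arrays of a group correlated at 0.998 across probe sets, which are not independent replicates, and arrays of different groups at 0.996 to 0.997. The myeloid genes LYZ (13.33 in CA, 13.38 in DMSO) and FLT3 (11.72 in CA, 11.69 in DMSO) were well above the arrays' upper quartile of 7.67 to 7.69. Of the 13 measured myeloid markers, however, 6 averaged above that quartile (also MPO, CSF2RA, CSF3R and PTPRC) and 7 below it, and SPI1, CD14, ANPEP and FCGR1A were below the arrays' median of 5.59 to 5.62. Of these markers 0 were called higher and 4 lower (PTPRC, ITGAM, CSF1R and CD4) in the limma fit given below, against 6.64% and 4.49% of all genes. By sign alone, 6 of the 13 were higher in CA and 7 lower. The list's mean log2 per array was 7.53 to 7.61 in CA and 7.66 to 7.72 in DMSO. The T cell genes CD3D, CD3E, CD3G and CD2 averaged 3.98 to 5.65 in either group, and the T and NK list averaged 5.02 to 5.05 in CA and up to 5.11 in DMSO. Of the NK genes of that list, KLRD1 was at 4.71 in CA and 4.64 in DMSO. NKG7 was above the arrays' median, at 6.73 in CA and 7.26 in DMSO. The 3′ minus 5′ log2 signal of the GAPDH control probe sets, a measure of RNA integrity, was 0.48 ± 0.05 in CA and 0.38 ± 0.02 in DMSO (SD, n = 3 each; exact permutation p = 0.1, 2-sided, the smallest the design allows). The same measure for ACTB was 2.38 ± 0.07 in CA and 2.27 ± 0.13 in DMSO, and the groups overlapped (exact permutation p = 0.3). The part of the myeloid markers and of RNA integrity in the results below was not tested. Each array measured the RNA of a whole well, so less RNA per cell and fewer cells that express a gene cannot be told apart.

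Of the 38 genes, 7 rose and 3 fell in CA (limma, Benjamini-Hochberg adjusted p under 0.05 over all 19775 genes). This is 26.3% of the genes, and over all genes 11.1% were called, 6.64% higher and 4.49% lower. Because the list was chosen with earlier results known, these shares are a description and not a test. Counting only those whose mean log2 reached 6, 8 of 35 members (22.9%) and 18.2% of all such genes were called. The CA and DMSO values did not overlap in 22 of the 38 genes, with CA above in 12 and below in 10; over all genes this held for 31.8% (CA above in 16.6% and below in 15.2%). The median log2 change was 0.02 over the 38 genes and -0.00 over all genes. OPTN, VMP1 and WIPI1 rose and BNIP3L fell in each fit that left out 1 of the 6 arrays. The calls of ATG101, ATG16L1, CALCOCO2, PIK3C3, ATG7 and ATG12 were lost in at least 1 of these fits, which called 3 to 5 members higher and 1 or 2 lower.

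The 250 bases before the annotated start are shown for the 3 genes whose rise was kept in each of these fits (RefSeq, GRCh38.p14). They are among the sequences that the motif search below covers, and none is printed for BNIP3L. Capitals mark the match to a motif searched, and the VMP1 and WIPI1 sequences hold none. OPTN is from chr10:13099832-13100081 (plus strand), VMP1 from chr17:59707404-59707653 (plus strand) and WIPI1 from chr17:68457497-68457746 (minus strand), each written 5′ to 3′.
OPTN: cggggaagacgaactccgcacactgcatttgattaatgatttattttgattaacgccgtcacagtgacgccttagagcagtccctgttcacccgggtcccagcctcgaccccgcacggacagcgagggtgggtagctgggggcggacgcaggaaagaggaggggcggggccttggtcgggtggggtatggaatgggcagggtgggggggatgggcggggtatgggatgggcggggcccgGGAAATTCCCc
VMP1: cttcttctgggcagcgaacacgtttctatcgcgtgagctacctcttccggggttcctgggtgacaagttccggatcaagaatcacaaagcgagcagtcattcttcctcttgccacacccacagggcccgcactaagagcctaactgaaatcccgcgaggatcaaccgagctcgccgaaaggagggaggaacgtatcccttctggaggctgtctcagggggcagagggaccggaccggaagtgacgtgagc
WIPI1: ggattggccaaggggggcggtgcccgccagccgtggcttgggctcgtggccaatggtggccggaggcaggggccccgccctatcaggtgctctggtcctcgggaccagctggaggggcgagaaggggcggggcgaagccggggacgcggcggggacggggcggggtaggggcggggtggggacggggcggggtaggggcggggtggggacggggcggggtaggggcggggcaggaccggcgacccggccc

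The motifs were searched on both strands in the 250 bases before each RefSeq start, and 34 of the 38 genes had such a sequence, with 43 starts in all. An exact form of the NF-kB consensus (GGGAA followed by TTTCC) was chosen after the OPTN sequence was seen, so its match there is not a finding of the search. It stood on the opposite strand in both overlapping windows of OPTN, from 11 bases before the start of the one shown. No other member's window held it. Of 35116 windows of all genes, 50 held this exact form (0.142%), and looser forms of the consensus were not searched. The E-box CACGTG, the core of the element that the autophagy regulator TFEB binds, stood in 3 of the 43 members' windows, those of ATG14, ATG3 and BNIP3 (6.34% of all windows). None of these 3 genes was called. The FOXO core GTAAACA was found for CALCOCO2 alone (2.98% of all windows), and the interferon-response type (GAAA, any 2 bases, GAAA) in 0 of the 43 (3.02% of all windows). The motifs searched do not overlap each other in these sequences. A match is a description of the sequence and was not tied to binding.

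**Figure D1:**
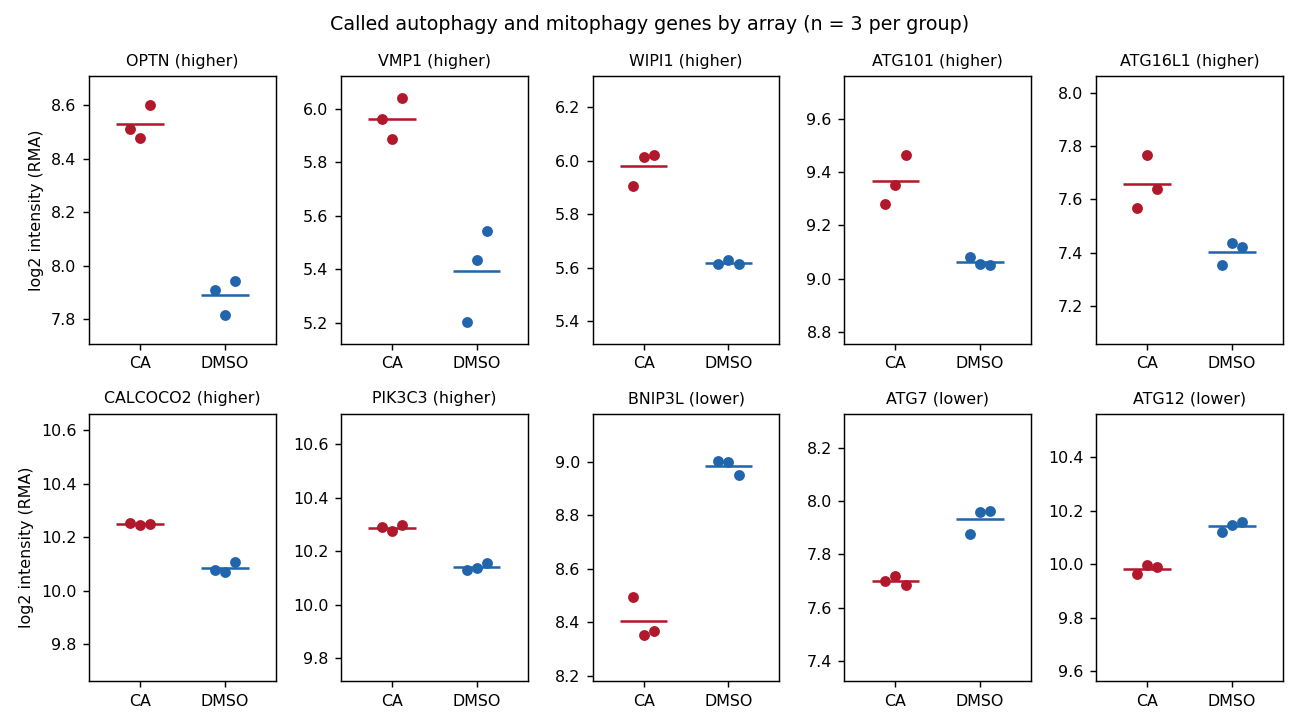
Log2 intensity (RMA) of the 10 called genes on each array, with CA on the left and DMSO on the right of each panel. Points are arrays (n = 3 per group), lines are group means, and every panel spans 1 log2 unit. CA lies wholly above DMSO in the 7 genes called higher and wholly below in the 3 called lower.

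Among the mitophagy genes, 1 of 5 fell and 0 rose. BNIP3L (also NIX), a receptor in the outer mitochondrial membrane that removes mitochondria from maturing red cells, had the largest fall of the 38 genes. It read 8.49, 8.35 and 8.36 in CA, against 9.00, 9.00 and 8.95 in DMSO. All CA arrays were lower than all DMSO arrays, by more than the spread within either group. BNIP3L fell 1.50-fold (log2 change -0.58, SE 0.05, adjusted p = 9.80e-04 by limma). Its other probe set fell as well (8.17, 8.02 and 8.09 in CA, against 8.59, 8.60 and 8.54 in DMSO; log2 change -0.48, adjusted p = 0.00460 by limma over 54613 probe sets, of which 5.01% were called).

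Its relative BNIP3, a hypoxia-induced receptor, was at 10.46, 10.36 and 10.44 in CA, against 10.63, 10.56 and 10.47 in DMSO. The groups did not overlap, with DMSO replicate 3 only slightly above the highest CA array, and the change of -0.14 was not called (95% confidence interval -0.27 to -0.00, adjusted p = 0.184 by limma). FUNDC1, another receptor of the outer membrane, was at -0.12 (adjusted p = 0.111). PINK1, the kinase that marks damaged mitochondria, read 7.45, 7.58 and 7.57 in CA, against 7.70, 7.66 and 7.60 in DMSO, a change of -0.13 (-0.25 to -0.00, adjusted p = 0.188). In all 4 of BNIP3L, BNIP3, FUNDC1 and PINK1 each CA array was below each DMSO array, as in 15.2% of all genes. Only BNIP3L was called. PHB2, a receptor of the inner mitochondrial membrane, was at 0.01 (-0.08 to 0.09).

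Of the 5 ubiquitin-binding cargo receptors, 2 rose and 0 fell. OPTN (optineurin), which brings ubiquitin-tagged mitochondria and bacteria to ATG8 proteins, had the largest rise of the 38 genes. It read 8.51, 8.48 and 8.60 in CA, against 7.91, 7.81 and 7.94 in DMSO, so that the groups lay far apart. OPTN rose 1.56-fold (log2 change 0.64, SE 0.05, adjusted p = 8.50e-04 by limma). The second OPTN probe set rose by 0.62 (7.13, 7.02 and 7.27 in CA, against 6.65, 6.56 and 6.34 in DMSO; adjusted p = 0.0161).

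CALCOCO2 (also NDP52), a receptor for bacteria and mitochondria, rose 1.12-fold, at 10.25 in each CA array against 10.08, 10.07 and 10.11 in DMSO (log2 change 0.17, SE 0.03, adjusted p = 0.0282 by limma). The call was lost in all 6 fits without 1 array (0.0755 to 0.0902). Of its 4 probe sets, 2 were higher in CA and 2 lower, and in the fit over all probe sets only a second one, at 0.27, was called.

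SQSTM1 (p62), the best-known cargo receptor and itself degraded by autophagy, read 8.94, 8.95 and 8.99 in CA, against 8.82, 8.85 and 8.82 in DMSO. All CA arrays were above all DMSO arrays, and the change of 0.13 was not called (95% confidence interval 0.04 to 0.21, adjusted p = 0.0748 by limma). Its other 4 probe sets, all uncalled, differed in sign, at 0.22, 0.10, -0.07 and -0.04. TAX1BP1, a receptor for protein aggregates, was at -0.14 with no overlap between groups (adjusted p = 0.0694), and its other 2 probe sets were also lower in CA. NBR1, a receptor that binds SQSTM1, was at 0.02. The uncalled receptors thus lay on both sides of 0.

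None of the 4 ATG8 genes was called by the probe set that represents it (0 rose and 0 fell). An unadjusted p under 0.05 by limma was also found in 0 of them, and in 25.3% of all genes. MAP1LC3B, whose protein LC3 is the usual marker of autophagosomes, read 8.92, 9.04 and 9.05 in CA, against 8.98, 8.95 and 9.04 in DMSO, and the groups overlapped (log2 change 0.01, 95% confidence interval -0.11 to 0.13, adjusted p = 0.909 by limma). Its second probe set was lower in CA without overlap, at 8.61, 8.57 and 8.59 in CA, against 8.66, 8.72 and 8.72 in DMSO, and was not called (-0.11, adjusted p = 0.245 over all probe sets). GABARAP was at 0.05 (-0.05 to 0.14) and GABARAPL2, with CA below DMSO on every array, at -0.08 (-0.16 to 0.01). GABARAPL1, of the GABARAP branch like these, was at -0.10 with a wide interval (-0.35 to 0.16).

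The probe sets of GABARAPL1 differed as well. The one that represents the gene read 6.31, 6.53 and 6.71 in CA, against 6.62, 6.50 and 6.71 in DMSO, with overlapping groups. A second read 5.13, 5.33 and 5.50 in CA, against 5.65, 5.65 and 5.64 in DMSO, a change of -0.33 without overlap that was not called (adjusted p = 0.103 by limma over all probe sets). A further probe set, annotated to GABARAPL1 and to its close copy GABARAPL3, was called lower at -0.43 (6.24, 6.32 and 6.18 in CA, against 6.65, 6.64 and 6.73 in DMSO; adjusted p = 0.00765). It cannot be given to either gene.

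**Figure D2:**
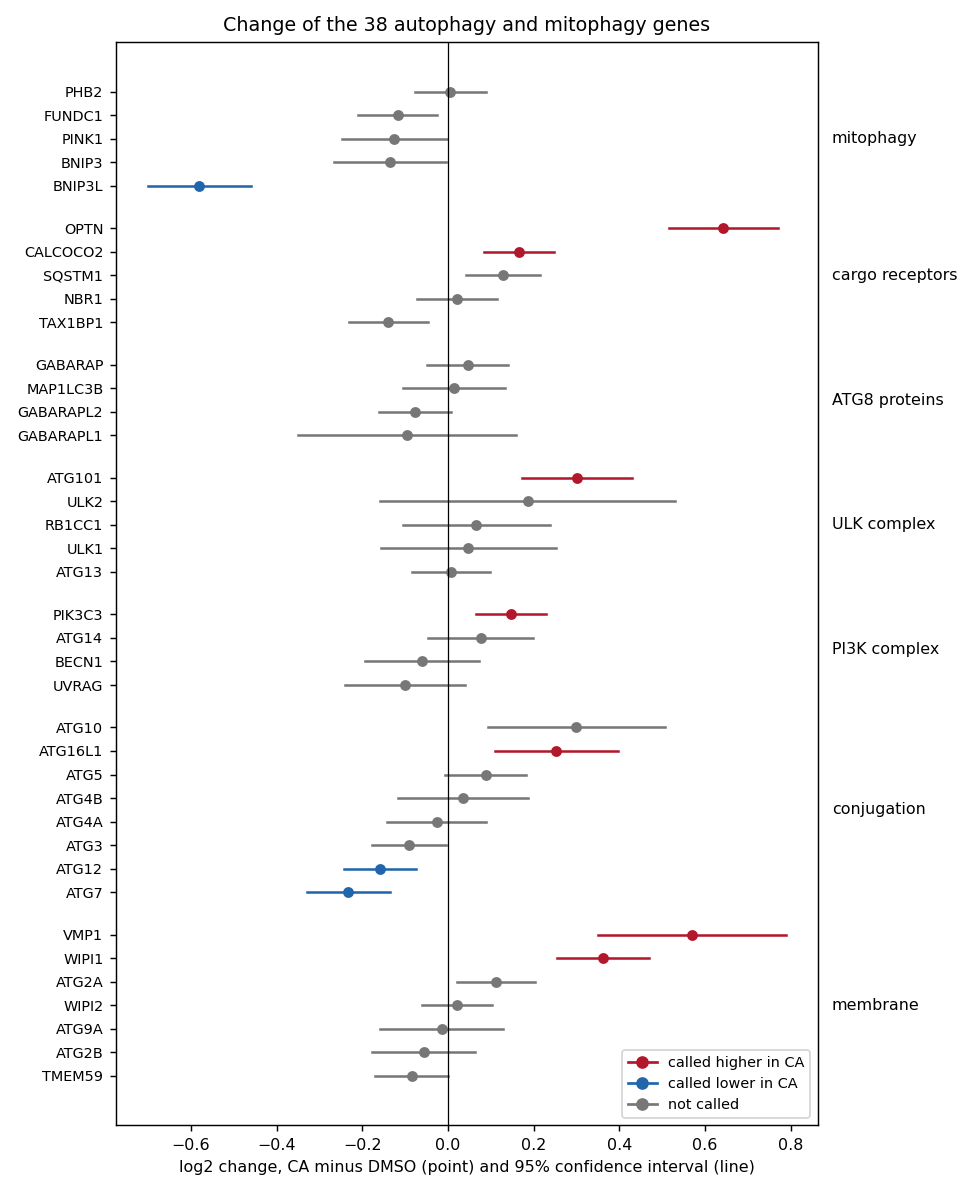
Log2 change, CA minus DMSO, of the 38 genes (points) with the 95% confidence interval of the limma fit (lines), grouped by role. The changes run from -0.58 for BNIP3L to 0.64 for OPTN, with 7 genes called higher, 3 called lower and 28 not called.

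In the ULK complex, which starts autophagy when nutrients are short, 1 of 5 genes rose and 0 fell. ATG101, the subunit that stabilises ATG13, read 9.28, 9.35 and 9.46 in CA, against 9.08, 9.06 and 9.05 in DMSO. Every CA array was above every DMSO array, and ATG101 rose 1.23-fold (log2 change 0.30, SE 0.05, adjusted p = 0.0169 by limma). This gene has 1 probe set, and its call was kept without CA replicate 1 or 3 and lost without CA replicate 2 or any DMSO replicate (adjusted p up to 0.0664). The kinase ULK1 read 6.75, 6.66 and 6.91 in CA, against 6.59, 6.75 and 6.83 in DMSO, with overlapping groups (0.05, 95% confidence interval -0.16 to 0.25, adjusted p = 0.792). ULK2 (0.19), the scaffold RB1CC1, also FIP200 (0.07), and ATG13 (0.01) were not called either. ULK2 had the widest interval of the 38 genes (-0.16 to 0.53), at 4.74 to 5.28 in CA and 4.73 to 4.96 in DMSO.

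In the lipid kinase complex, 1 of 4 genes rose and 0 fell. PIK3C3 (VPS34), the kinase itself, read 10.29, 10.27 and 10.30 in CA, against 10.13, 10.14 and 10.16 in DMSO. The groups were tight and apart, and the rise was 1.11-fold (log2 change 0.15, SE 0.03, adjusted p = 0.0415 by limma). It was lost in all 6 fits without 1 array (0.103 to 0.119), and the other 6 of its 7 probe sets were at -0.13 to -0.00, uncalled. BECN1 (Beclin 1), the scaffold of the complex, read 9.86, 9.89 and 9.99 in CA, against 9.91, 10.05 and 9.96 in DMSO, overlapping (-0.06, -0.19 to 0.07, adjusted p = 0.575). The alternative subunits ATG14 (0.08) and UVRAG (-0.10), which direct the kinase to autophagosome formation or to later endosomal steps, were not called.

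Of the 8 conjugation genes, 1 was called higher and 2 lower (6.64% and 4.49% of all genes). ATG7, the E1-like enzyme that activates both ATG12 and the ATG8 proteins, read 7.70, 7.72 and 7.69 in CA, against 7.88, 7.96 and 7.96 in DMSO. The groups were apart, and ATG7 fell 1.17-fold (log2 change -0.23, SE 0.04, adjusted p = 0.0153 by limma). All 4 ATG7 probe sets were lower in CA without overlap, by 0.13 to 0.37 in size, and 3 of them were called. Leaving out any array except DMSO replicate 1 moved the gene's adjusted p to between 0.0510 and 0.0639.

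ATG12, the ubiquitin-like protein that is joined to ATG5, fell 1.12-fold, at 9.96, 10.00 and 9.99 in CA, against 10.12, 10.15 and 10.16 in DMSO (-0.16, SE 0.04, adjusted p = 0.0357 by limma). ATG16L1, which places the ATG12 and ATG5 conjugate on the membrane, rose 1.19-fold, at 7.57, 7.77 and 7.64 in CA, against 7.35, 7.44 and 7.42 in DMSO (0.25, SE 0.06, adjusted p = 0.0439). Neither set of values overlapped between groups. ATG12 lost its call whichever array was left out (0.0770 to 0.121), and ATG16L1 did so except without CA replicate 1 (0.0931 to 0.124). The second ATG16L1 probe set was at -0.02, and both other ATG12 probe sets were uncalled, at -0.03 and -0.06.

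ATG5 read 10.85, 10.79 and 10.84 in CA, against 10.78, 10.71 and 10.73 in DMSO, just without overlap, and the change of 0.09 was not called (95% confidence interval -0.01 to 0.18, adjusted p = 0.227 by limma). ATG10, the E2-like enzyme that joins ATG12 to ATG5, was at 0.30, as large as the change of ATG101, and with more spread (7.12, 7.28 and 7.37 in CA, against 6.93, 7.09 and 6.85 in DMSO; adjusted p = 0.0783). Of the 4 ATG10 probe sets, 3 were higher in CA and 1 lower. Those that do not represent the gene, at 0.08, 0.09 and -0.03, had overlapping groups. The remaining members, the E2-like enzyme ATG3 (-0.09, CA below DMSO without overlap) and the ATG8 proteases ATG4A (-0.03) and ATG4B (0.04), were not called.

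Of the 7 genes that act on the growing membrane, 2 rose and 0 fell. WIPI1, which binds the lipid made by PIK3C3, read 5.91, 6.02 and 6.02 in CA, against 5.61, 5.63 and 5.61 in DMSO. The groups lay well apart, and WIPI1 rose 1.29-fold (log2 change 0.36, SE 0.04, adjusted p = 0.00418 by limma). Its other probe set rose by 0.38 (adjusted p = 0.0422 by limma over all probe sets). In DMSO the signal was close to the median of the arrays (5.59 to 5.62).

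VMP1, a scramblase of the endoplasmic reticulum that is needed to form autophagosomes, read 5.96, 5.89 and 6.04 in CA, against 5.20, 5.44 and 5.54 in DMSO. All CA arrays were above all DMSO arrays, though DMSO spread widely, and VMP1 rose 1.48-fold (log2 change 0.57, SE 0.09, adjusted p = 0.0115 by limma). The call was kept in each of the 6 fits without 1 array (0.0155 to 0.0485). This rests on the 1 probe set annotated to VMP1 alone, in DMSO below the arrays' median.

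A further 3 probe sets are annotated to both VMP1 and MIR21, the gene of microRNA 21, which lies at the far end of VMP1, and all 3 were called higher by limma over all probe sets. The first read 9.78, 9.67 and 9.73 in CA, against 8.69, 8.64 and 8.67 in DMSO, a 2.09-fold rise (log2 change 1.06, SE 0.05, adjusted p = 1.36e-04). The second read 5.27, 5.63 and 5.22 in CA, against 4.50, 4.56 and 4.48 in DMSO (0.86, adjusted p = 0.00633). The third read 10.93, 10.89 and 10.90 in CA, against 10.61, 10.65 and 10.65 in DMSO (0.27, adjusted p = 0.0197). All 4 probe sets of the locus were thus higher in CA without overlap, by amounts that ran from 0.27 to 1.06. The arrays do not say which share comes from VMP1 messenger RNA and which from the precursor of the microRNA, and the mature microRNA was not measured.

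**Figure D3:**
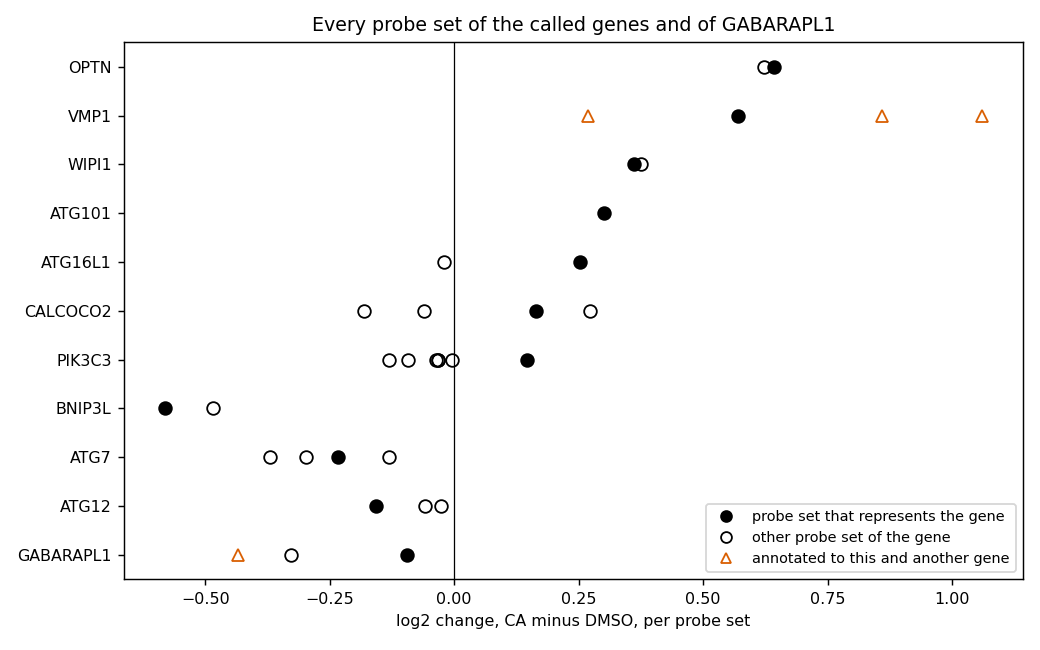
Log2 change, CA minus DMSO, of each probe set of the 10 called genes and of GABARAPL1. Filled circles are the probe sets that represent the genes, open circles their other probe sets, and triangles probe sets annotated to the gene and to another gene (MIR21 for VMP1, GABARAPL3 for GABARAPL1). The probe sets of OPTN, VMP1, WIPI1, BNIP3L, ATG7, ATG12 and GABARAPL1 lie on 1 side of 0, and those of CALCOCO2, PIK3C3 and ATG16L1 on both.

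The other 5 membrane genes were not called. The lipid carriers ATG2A (0.11) and ATG2B (-0.06), the scramblase ATG9A (-0.02), WIPI2 (0.02), which recruits ATG16L1, and TMEM59 (-0.08), a membrane protein that binds ATG16L1, had adjusted p of 0.119 or more by limma. The groups did not overlap in ATG2A and WIPI2, with CA above, nor in TMEM59, with CA below. WIPI2 had one of the narrower intervals of the 38 genes (-0.06 to 0.10).

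**Figure D4:**
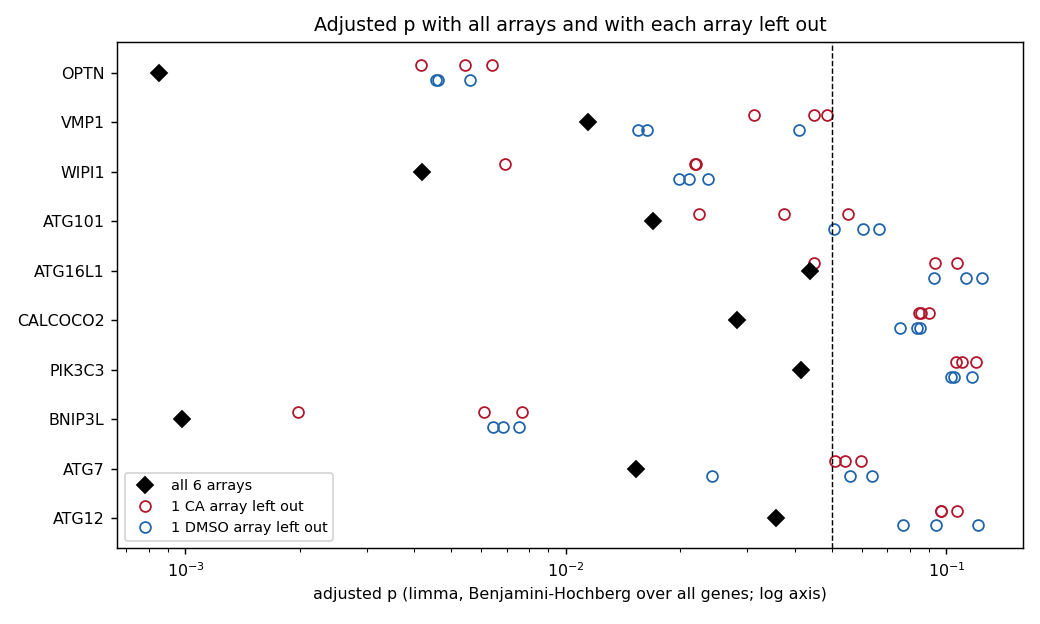
Adjusted p (limma, Benjamini-Hochberg over all genes, log axis) of the 10 called genes with all 6 arrays (diamonds) and with 1 CA array or 1 DMSO array left out (circles); the dashed line is 0.05. OPTN, VMP1, WIPI1 and BNIP3L stay left of the line in all 6 fits, and CALCOCO2, PIK3C3 and ATG12 lie right of it in all 6.

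A list of 49 other genes of the pathway, of which 48 were measured, held 3 genes called higher and 3 called lower (12.5% called, against 11.1% of all genes). DDIT4, an inhibitor of the nutrient sensor mTORC1, rose 1.20-fold, at 12.96, 12.97 and 12.97 in CA, against 12.78, 12.69 and 12.65 in DMSO (log2 change 0.26, adjusted p = 0.0163 by limma). The ferritin receptor NCOA4 rose by 0.22 (adjusted p = 0.0127) and CCPG1, a receptor for autophagy of the endoplasmic reticulum, by 0.31 (adjusted p = 0.0438). A further 4 probe sets, annotated to CCPG1 and to the readthrough gene DNAAF4-CCPG1, were uncalled with overlapping groups, at -0.05 to 0.11. WDFY3 (ALFY), a scaffold for the autophagy of protein aggregates, read 7.52, 7.41 and 7.51 in CA, against 7.94, 7.77 and 7.96 in DMSO, and fell 1.33-fold (-0.41, adjusted p = 0.00993). RTN3, a receptor for tubules of the endoplasmic reticulum, fell (-0.19, adjusted p = 0.0339), as did RHOT1, the mitochondrial transport protein Miro1 (-0.17, adjusted p = 0.0415).

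Of these 6, NCOA4 and WDFY3 were called with each array left out, and DDIT4, CCPG1, RTN3 and RHOT1 lost their calls in at least 1 such fit. By role, 1 of 9 other mitophagy genes was called (lower), 4 of 10 other cargo receptors (2 higher and 2 lower), 0 of 3 other ATG8 genes (1 at an unadjusted p under 0.05) and 1 of 11 other initiation genes (higher). None of 3 other conjugation genes, 5 other membrane genes and 7 fusion genes was called by limma. In these groups 1, 1 and 2 genes had an unadjusted p under 0.05, which 25.3% of all genes had. MTOR, the kinase that restrains autophagy, was at 0.05 (adjusted p = 0.581 by limma). Its second probe set was at -0.30 without overlap and was not called (adjusted p = 0.196 by limma over all probe sets). STX17, the SNARE that joins autophagosome and lysosome, was at 0.26 without overlap and was not called (adjusted p = 0.0657). Of the 5 STX17 probe sets, 2 were higher in CA and 3 lower, all uncalled.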

How the data were processed

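RNA of 3 CA and 3 DMSO samples of MOLM-14 cells was hybridised to 1 Affymetrix Human U133 Plus array each. The authors deposited 1 log2 intensity for each probe set, made with RMA and affy, per the submitters' processing notes. Neither versions nor the set of arrays processed jointly is stated in the labels. RMA compresses large fold changes. The number of arrays limits the precision.

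Of 54675 probe sets, 62 were controls, 41091 had 1 gene symbol, 1801 several and 11721 were unnamed here. Symbols were updated by Entrez number through a table of GRCh38.p14 (99.9% matched). Each gene took its probe set of highest mean, without a filter on level. The groups were compared in limma 3.58.1 (R 4.3.3; lmFit and eBayes, 2-sided, no covariates), with Benjamini-Hochberg adjustment over 19775 genes and a threshold of 0.05 on the adjusted p. The fit was tested on simulated data. A fit over all 54613 probe sets that are not controls gave the values of single probe sets.

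The members, lists and motifs were chosen with earlier results of these data known. Every called member is given with its 6 values, and the others by role, with values for BNIP3, PINK1, SQSTM1, MAP1LC3B, ULK1, BECN1 and ATG5; other uncalled genes with values were chosen after these were seen. The replicates are wells as far as the labels say, and p-values measure only the spread between them, which may be technical. CA and DMSO samples share replicate numbers, and same-numbered deviations from the group means correlated at 0.02 to 0.03, so the numbers were not taken as pairs. Alternatives changed the probe set, filter, normalization, moderation, replicate block and arrays.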

Additional observations from a re-analysis of the deposited data

How the results depend on the processing

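BNIP3L, OPTN, VMP1 and WIPI1 were called under every alternative that measured them (highest adjusted p of 0.0101, 0.0132, 0.0485 and 0.0391; VMP1 and WIPI1 lie under the filter at a mean log2 of 6). Of the members, 7 were higher and 3 lower in the main setting. With each gene as its probe sets' mean, 4 of 38 members were higher and 2 lower (8.86% of all genes called in either direction). The probe set of largest variance also gave 4 higher and 2 lower of 38 (7.14% of all genes called). Without _x_at and _s_at probe sets, 5 of 29 were higher and 1 lower (7.81% of all genes called). With genes of mean log2 of at least 6, 8 of 35 were higher and 5 lower (31.4% of all such genes called). An intensity trend with robust moderation gave 9 higher and 7 lower of 38 (19.3% of all genes called). Over all genes, 1314 higher and 888 lower became 841 and 570 with the largest variance, 770 and 566 without the _x_at and _s_at sets, and 2119 and 1695 with the trend; the filter at 6 gave 1539 lower. Of the other pathway genes, 3 higher and 3 lower became 0 higher of 36 without those probe sets (2 at an unadjusted p under 0.05), 5 and 5 with a filter at 5, 6 and 5 with a filter at 6, 6 and 7 with the trend, and 1 lower with the largest variance or with arrays centred on the reference genes. That centring moved the median of all genes by 0.03 and the share of calls that were higher to 73.0%, from 59.7%. Of the 10 reference genes measured, HPRT1 was itself called lower by limma (log2 change -0.21). Among the 10, CA lay wholly above DMSO in 2 and wholly below in 3 (16.6% and 15.2% of all genes).

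Leaving out 1 array, whichever it was, gave 3 to 5 members higher and 1 to 2 lower, 721 to 848 genes higher and 435 to 495 lower, and 1 to 2 other pathway genes higher and 1 to 2 lower. With the replicate block, 3 members were higher and 1 lower (716 and 402 of all genes), and of the other pathway genes 0 were higher (6 at an unadjusted p under 0.05) and 1 lower by limma; no array correlated best with its own number. Among called members, signs turned for PIK3C3 (-0.026 with the mean of its probe sets, -0.13 with the largest variance), ATG16L1 (-0.020) and CALCOCO2 (-0.18, both with the largest variance), none of them called; other probe sets stand for the gene in these settings. Of the 28 uncalled members, 11 turned sign under at least 1 alternative or left-out array (SQSTM1, MAP1LC3B, NBR1, ATG13, ATG4A, ATG4B, ATG2B, ATG9A, GABARAPL1, PHB2 and ULK1), uncalled in each. In the fit per probe set, chosen after seeing the data, ATG12, ATG16L1, CALCOCO2, PIK3C3, CCPG1, RHOT1 and RTN3 lost their calls (adjusted p of 0.0729 to 0.123). Another RHOT1 probe set was called lower in that fit (-0.25, adjusted p = 0.0361 by limma), and its remaining one, at -0.14, was not called. With 3 arrays a group, changes of the size seen in ATG12 or PIK3C3 lie at the limit of what was called, and the arrays do not measure protein or autophagic flux.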

Other observations

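Of 4 measured B cell genes, PAX5 was called higher by limma (log2 change 0.42) and the list's mean log2 per array was 6.45 to 6.53 in CA and 6.36 to 6.41 in DMSO. Of a list of 7 genes set up as epithelial and stromal, PECAM1 (0.33) and KRT18 (0.26) were called higher. The list means were 6.75 to 6.88 in CA and 6.65 to 6.69 in DMSO. PECAM1, which is not particular to these cell types, was the highest of the list, at 11.17 in CA and 10.84 in DMSO. Of 6 T and NK cell genes, NKG7 was called lower (-0.52). None of 3 erythroid genes (5.37 to 5.49 in CA, 5.35 to 5.41 in DMSO) and 5 megakaryocyte genes (5.40 to 5.44 in CA, 5.36 to 5.51 in DMSO) was called by limma or had an unadjusted p under 0.05. Their part in the results was not tested.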
